A study of Homo sapiens with 8 samples.

Results

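The genes described here are the common transcriptional targets of Wnt signalling, most of which also act back on the pathway as feedback regulators. The set was defined by name and held 10 genes, AXIN2, LEF1, TCF7, NKD1, RNF43, ZNRF3, LGR5, ASCL2, SP5 and APCDD1, of which 9 were measured by a probe set that the array annotation assigns to that gene alone. TCF7 had no such probe set and was not analysed here. All 9 measured members passed the filter on dim genes and stood among 16910 genes tested. Expression was measured on Affymetrix Human Gene 1.0 ST arrays in 4 established human tumour cell lines, COLO741, SW620, HT29 and HCT116, which the labels describe as colon carcinoma, SW620 as a lymph node metastasis and HT29 as adenocarcinoma. Each line, grown in RPMI medium with serum and with no drug named in the labels, was sorted with an antibody against the transporter ABCB5 into a positive and a negative population, with 1 array for each. One of the lines is called SW620 in the labels of its arrays and SW480 in the text on the series design; the former name is used here.

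In canonical Wnt signalling, ligand binding to Frizzled and LRP receptors stops a destruction complex, built on the scaffolds APC and axin, from degrading beta-catenin, which then joins TCF and LEF proteins on DNA and switches on target genes. Several targets restrain the pathway: AXIN2 rebuilds the destruction complex, NKD1 acts on Dishevelled, RNF43 and ZNRF3 remove Frizzled receptors from the surface, and APCDD1 inhibits at the membrane. In the intestine the same signal maintains the crypt stem cells, which are marked by LGR5 and ASCL2. As background, HT29 and SW620 are known for truncated APC and HCT116 for an activating change in beta-catenin, neither of which the arrays measure.

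Because TCF and LEF proteins read a short DNA word, the promoters of the members were searched for CTTTGAA and CTTTGAT on both strands, in the 250 bases before the transcription start (RefSeq sequences, GRCh38.p14). Windows were at hand for 5 members (SP5, LEF1, TCF7, RNF43 and APCDD1), 7 windows in all, and only that of SP5 held a match. The 3 windows that lie before the outermost start of their gene are shown, 5′ to 3′ in the direction of the gene, with matches in capitals: SP5 at chr2:170715087-170715336 on the plus strand, APCDD1 at chr18:10454385-10454634 on the plus strand and RNF43 at chr17:58417535-58417784 on the minus strand.
SP5: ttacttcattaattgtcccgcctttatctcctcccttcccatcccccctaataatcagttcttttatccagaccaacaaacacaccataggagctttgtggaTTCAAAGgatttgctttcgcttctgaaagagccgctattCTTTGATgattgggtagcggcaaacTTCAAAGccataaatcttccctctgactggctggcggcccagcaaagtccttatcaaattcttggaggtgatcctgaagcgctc
APCDD1: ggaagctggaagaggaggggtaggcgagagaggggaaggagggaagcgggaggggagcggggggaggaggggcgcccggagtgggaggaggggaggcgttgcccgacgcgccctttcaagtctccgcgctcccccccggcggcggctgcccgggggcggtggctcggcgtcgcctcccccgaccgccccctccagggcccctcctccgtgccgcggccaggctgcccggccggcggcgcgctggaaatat
RNF43: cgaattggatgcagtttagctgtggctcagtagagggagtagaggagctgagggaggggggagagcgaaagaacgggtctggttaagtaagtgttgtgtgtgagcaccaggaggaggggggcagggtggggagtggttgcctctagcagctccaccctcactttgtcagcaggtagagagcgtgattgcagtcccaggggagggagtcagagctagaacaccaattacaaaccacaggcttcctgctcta
The SP5 window held 3 matches. They start at bases -148, -109 and -84 from the start of transcription, the first and the last of them as CTTTGAA on the opposite strand. At least 1 match occurred in 5.94% of 35116 promoter windows of this length, and at least 3 matches in 7 windows, or 0.0199%. The absence of these letters from the other windows covers only these windows.

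Levels are the deposited log2 values, so 1 unit is a 2-fold difference, and they are compared between arrays for a gene and not between genes. Across all probe sets the arrays of a line correlated at 0.993 to 0.996, and the negative arrays of different lines at 0.931 to 0.965. As a mark of background, 360 probe sets of olfactory receptor genes had a median of 5.73 and a 95th percentile of 7.50. Of the 12 colon epithelium markers examined, 9 to 12 exceeded that percentile in SW620, HT29 and HCT116 and 6 in COLO741. EPCAM, the epithelial adhesion protein, measured 6.43 and 5.36 in COLO741 and 13.32 to 13.77 elsewhere. CDX1 did not set COLO741 apart, at 8.74 and 8.72 there and 8.53 to 8.92 elsewhere. KRT20 was under the percentile in SW620 and HCT116 as well as in COLO741. Of 9 melanocyte markers all 9 exceeded that percentile in COLO741, with MLANA at 13.49 and 13.24, and 2 to 5 in the other lines. MC1R exceeded it in every line and was not raised in COLO741, at 8.17 and 8.40 beside 8.67 and 8.81 in SW620. The summed linear level of the melanocyte markers was 73592 and 62962 in COLO741 and 1334 to 1510 elsewhere, and that of the epithelial markers 5657 and 6119 in COLO741 and 59693 to 118156 elsewhere. COLO741 thus lacked several markers of the tissue its label names, and the part of cell identity in the differences below was not tested. Of 10 leukocyte markers 8 exceeded the percentile in the SW620 array labelled positive and 4 in the SW620 array labelled negative, with summed levels of 5353 and 2829. COLO741 had 3 and 4 over it, with sums of 10141 in the negative and 6413 in the positive array, a difference that lies mainly in CD68 (13.03 and 12.17), while LAPTM5 ran the other way (7.35 and 8.10). Of 9 fibroblast and endothelial markers 3 to 6 exceeded it in every array. ABCB5 itself measured 9.42 in the COLO741 array labelled negative and 8.14 in the one labelled positive, against its label, and 5.24 to 5.69 in the other lines, below the background percentile.

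AXIN2 and NKD1 act inside the cell. AXIN2, the axin scaffold that Wnt signalling induces, measured 12.56 and 12.64 in SW620, 11.20 and 11.16 in HT29, 9.54 and 9.51 in HCT116, and 9.28 and 8.78 in COLO741 (negative array first, as throughout). No arrays of different lines overlapped, and the order of the lines was SW620, HT29, HCT116, COLO741. AXIN2 was 2.67-fold higher in SW620 than in HT29 (1.42 ± 0.15 on the log2 scale, SE, limma adjusted p = 4.95e-04) and 3.15-fold higher in HT29 than in HCT116 (1.66 ± 0.15, adjusted p = 2.67e-04). The step from HCT116 to COLO741 was 0.50 ± 0.15 with a limma adjusted p of 0.0329. That last call was lost when any of 5 single arrays was left out, the COLO741 positive, the HT29 and the HCT116 arrays, with adjusted p from 0.0539 to 0.184, and with the arrays centred on their medians (adjusted p = 0.061). Without the COLO741 positive array the difference, COLO741 minus HCT116, was -0.24 in place of -0.50.

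NKD1, the Dishevelled-binding inhibitor, measured 14.14 and 14.00 in SW620, far above 9.08 and 9.14 in HCT116, 8.53 and 8.48 in COLO741, and 8.27 and 8.53 in HT29. It was 31.2-fold higher in SW620 than in HCT116, the next line (4.97 ± 0.11, SE, limma adjusted p = 2.29e-06). The HCT116 arrays lay above those of COLO741 by 0.60 ± 0.11 (adjusted p = 0.00574, and 0.0503 without the HCT116 positive array). COLO741 and HT29 did not differ past the threshold (0.11 ± 0.11, adjusted p = 0.492). NKD1 was thus far above the rest in 1 line, while AXIN2 had clear steps from SW620 to HT29 and from HT29 to HCT116.

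**Figure D1:**
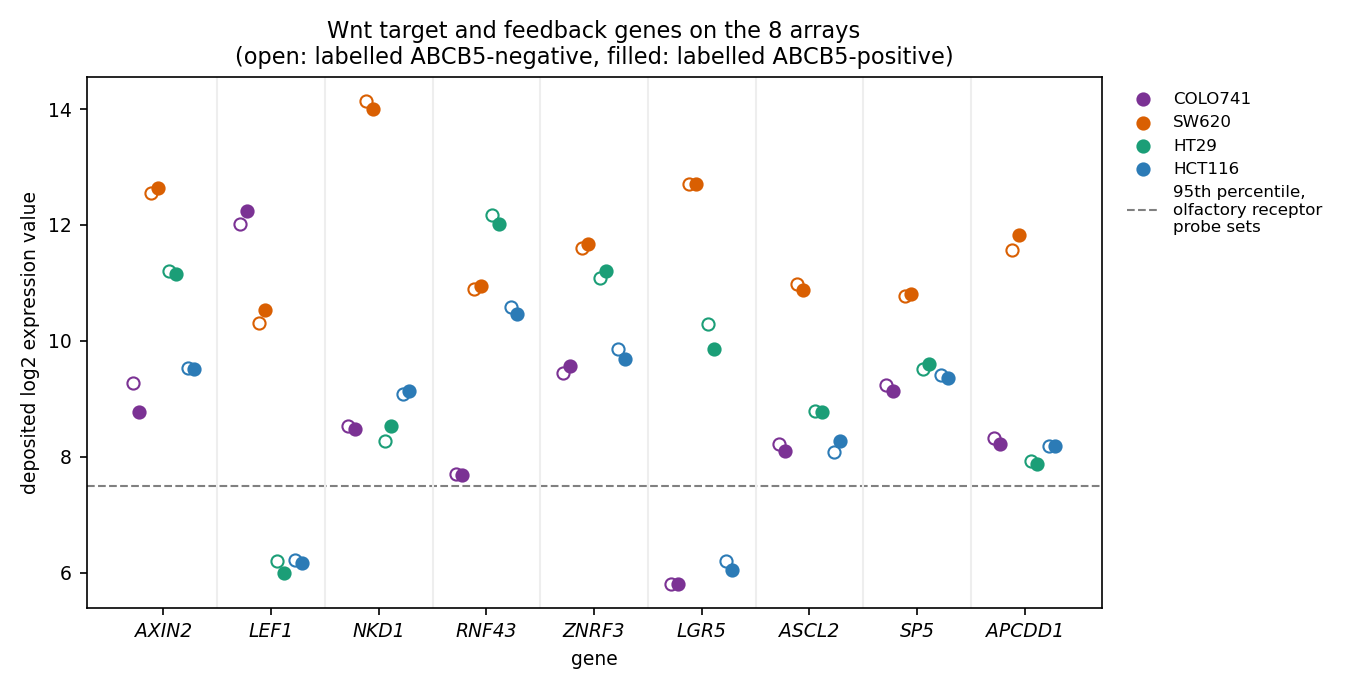
Deposited log2 level (vertical axis) of each of the 9 measured genes (horizontal axis) on the 8 arrays, coloured by line, with open points for arrays labelled ABCB5-negative and filled points for arrays labelled ABCB5-positive. The dashed line marks the background percentile of 7.50. The 2 points of a line lie close together, SW620 is highest for 7 of the 9 genes, and LEF1 in HT29 and HCT116 and LGR5 in COLO741 and HCT116 lie under the dashed line.

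RNF43 and ZNRF3 are the ubiquitin ligases that clear Frizzled receptors, and their highest line differed. RNF43 measured 12.18 and 12.02 in HT29, 10.90 and 10.94 in SW620, 10.58 and 10.46 in HCT116, and 7.70 and 7.69 in COLO741. RNF43 was the only member highest in HT29, 2.26-fold above SW620 (1.18 ± 0.09, SE, limma adjusted p = 1.38e-04). COLO741 lay 7.08-fold below HCT116, the next line up (2.82 ± 0.09, adjusted p = 2.92e-06). Between SW620 and HCT116 the step was 0.41 ± 0.09 (adjusted p = 0.0135), and it was lost without the SW620 positive array (0.0848) and without either HCT116 array (0.0679 and 0.111).

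ZNRF3, the homologue of RNF43, measured 11.60 and 11.67 in SW620, 11.08 and 11.20 in HT29, 9.86 and 9.69 in HCT116, and 9.45 and 9.56 in COLO741. It was 2.58-fold higher in HT29 than in HCT116 (1.37 ± 0.10, SE, limma adjusted p = 1.35e-04). SW620 exceeded HT29 by 0.49 ± 0.10 (adjusted p = 0.00993), a call lost without the SW620 positive array (0.0632) or the HT29 negative array (0.0887). HCT116 and COLO741 differed by 0.27 ± 0.10, short of the threshold (adjusted p = 0.0724).

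The stem cell genes LGR5 and ASCL2 were highest in SW620 and next in HT29. LGR5, the receptor for R-spondins on crypt base stem cells, measured 12.71 and 12.71 in SW620, 10.30 and 9.86 in HT29, 6.20 and 6.04 in HCT116, and 5.81 and 5.81 in COLO741. All 4 arrays of HCT116 and COLO741 were under the background percentile, so that their order is not measured. Set against that percentile, LGR5 was at least 37.1-fold higher in SW620 and at least 5.99-fold higher in HT29 than in either of them (limma adjusted p = 1.90e-06 for SW620 and 5.33e-06 for HT29, against HCT116). SW620 exceeded HT29 by 6.19-fold (2.63 ± 0.13, SE, adjusted p = 1.88e-05). The range of LGR5 between lines, 6.90 log2 units, was exceeded by that of 0.225% of the genes tested, and its low end lies in background.

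ASCL2, a transcription factor of intestinal stem cells, measured 10.98 and 10.88 in SW620, 8.79 and 8.78 in HT29, 8.09 and 8.27 in HCT116, and 8.22 and 8.10 in COLO741. It was 4.44-fold higher in SW620 than in HT29 (2.15 ± 0.10, SE, limma adjusted p = 1.79e-05). HT29 exceeded HCT116 by 0.60 ± 0.10 (adjusted p = 0.00425), and the arrays of HCT116 and COLO741 overlapped, with a difference of 0.02 ± 0.10 (adjusted p = 0.884) whose sign turned under other scalings.

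LEF1 had an order of its own. LEF1, a DNA-binding partner of beta-catenin, measured 12.01 and 12.24 in COLO741, 10.31 and 10.54 in SW620, 6.22 and 6.16 in HCT116, and 6.20 and 6.0 in HT29. It was the only member highest in COLO741, 3.26-fold above SW620 (1.70 ± 0.13, SE, limma adjusted p = 9.49e-05). HT29 and HCT116 lay under the background percentile, against which LEF1 was at least 24.7-fold higher in COLO741 and at least 7.58-fold higher in SW620.

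SP5, a zinc finger repressor and the gene with the 3 promoter matches shown above, measured 10.77 and 10.81 in SW620, 9.51 and 9.60 in HT29, 9.41 and 9.36 in HCT116, and 9.24 and 9.13 in COLO741. SW620 exceeded HT29 by 2.35-fold (1.23 ± 0.09, SE, limma adjusted p = 1.13e-04). Neither HT29 and HCT116 (0.17 ± 0.09, adjusted p = 0.197) nor HCT116 and COLO741 (0.20 ± 0.09, adjusted p = 0.13) differed past the threshold. SP5 was lower in COLO741 than in HT29 by 1.29-fold (adjusted p = 0.0165), but not without the COLO741 positive array (0.071) or without either HT29 array (0.0539 and 0.142). Its range of 1.60 between lines was the narrowest of the 9 members.

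APCDD1, the membrane inhibitor, measured 11.57 and 11.83 in SW620, 8.33 and 8.22 in COLO741, 8.19 and 8.18 in HCT116, and 7.93 and 7.87 in HT29. As for NKD1, SW620 lay far above the next line, here COLO741, by 10.8-fold (3.43 ± 0.11, SE, limma adjusted p = 2.40e-06). COLO741 and HCT116 differed by 0.09 ± 0.11 (adjusted p = 0.547) and HCT116 and HT29 by 0.28 ± 0.11 (adjusted p = 0.0903, and 0.0474 without either SW620 array). The 1.30-fold difference of COLO741 over HT29 (adjusted p = 0.032) was lost when any of 5 single arrays was left out, the COLO741 negative, both HT29 and both HCT116 arrays, with adjusted p from 0.0636 to 0.191.

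Set together, 7 of the 9 members were highest in SW620, where 21.6% of the genes tested had their highest line mean, and 6 had their lowest mean in COLO741, as did 30.3% of the genes tested. Of those 6, RNF43 and AXIN2 passed the test against HCT116, the next line, the latter with the limits given above; ZNRF3, SP5 and ASCL2 did not, and LGR5 was at background in both lines. Against HCT116 all 9 were called higher in SW620, with a median of 3.07 on the log2 scale. Of all genes tested 38.9% were called in that comparison, 19.1% higher and 19.8% lower, with a median of -0.068. Against HT29, 8 of 9 were higher in SW620 (21.2% of genes tested) and RNF43 was lower (18.9%), so that 9 of 9 were called beside 40% of all genes, with a median of 2.15. COLO741 had 8 of 9 below SW620 (24%) and LEF1 above (23%), 9 of 9 called beside 47%. These comparisons share the SW620 arrays, and each is given for its own values. Between HT29 and HCT116, where 39% of all genes were called, 6 of 9 members were, with AXIN2, RNF43, ZNRF3, LGR5 and ASCL2 higher in HT29 (18.4% of genes tested), NKD1 lower (20.6%), and LEF1, SP5 and APCDD1 short of the threshold.

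Between COLO741 and HCT116 fewer members were called. Of the 9, AXIN2, NKD1 and RNF43 were lower in COLO741 (23.9% of genes tested), LEF1 higher (22%), and 5 did not pass, so that 4 of 9 were called beside 45.9% of all genes. Against HT29, 6 were lower in COLO741 (22.2%) and LEF1 and APCDD1 higher (23.1%), 8 of 9 called beside 45.3%. Against the mean of the other 3 lines 8 members were lower in COLO741 (26%) and LEF1 higher (23.7%), 9 of 9 called beside 49.7%, at a median of -1.35 beside -0.035 over all genes. For APCDD1 that contrast rests on SW620, since COLO741 was below neither HT29 nor HCT116. For NKD1 it rests largely on SW620, as COLO741 was not below HT29 and lay 0.60 below HCT116. In bulk RNA such as this, fewer cells with a transcript and less of it per cell cannot be told apart.

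**Figure D2:**
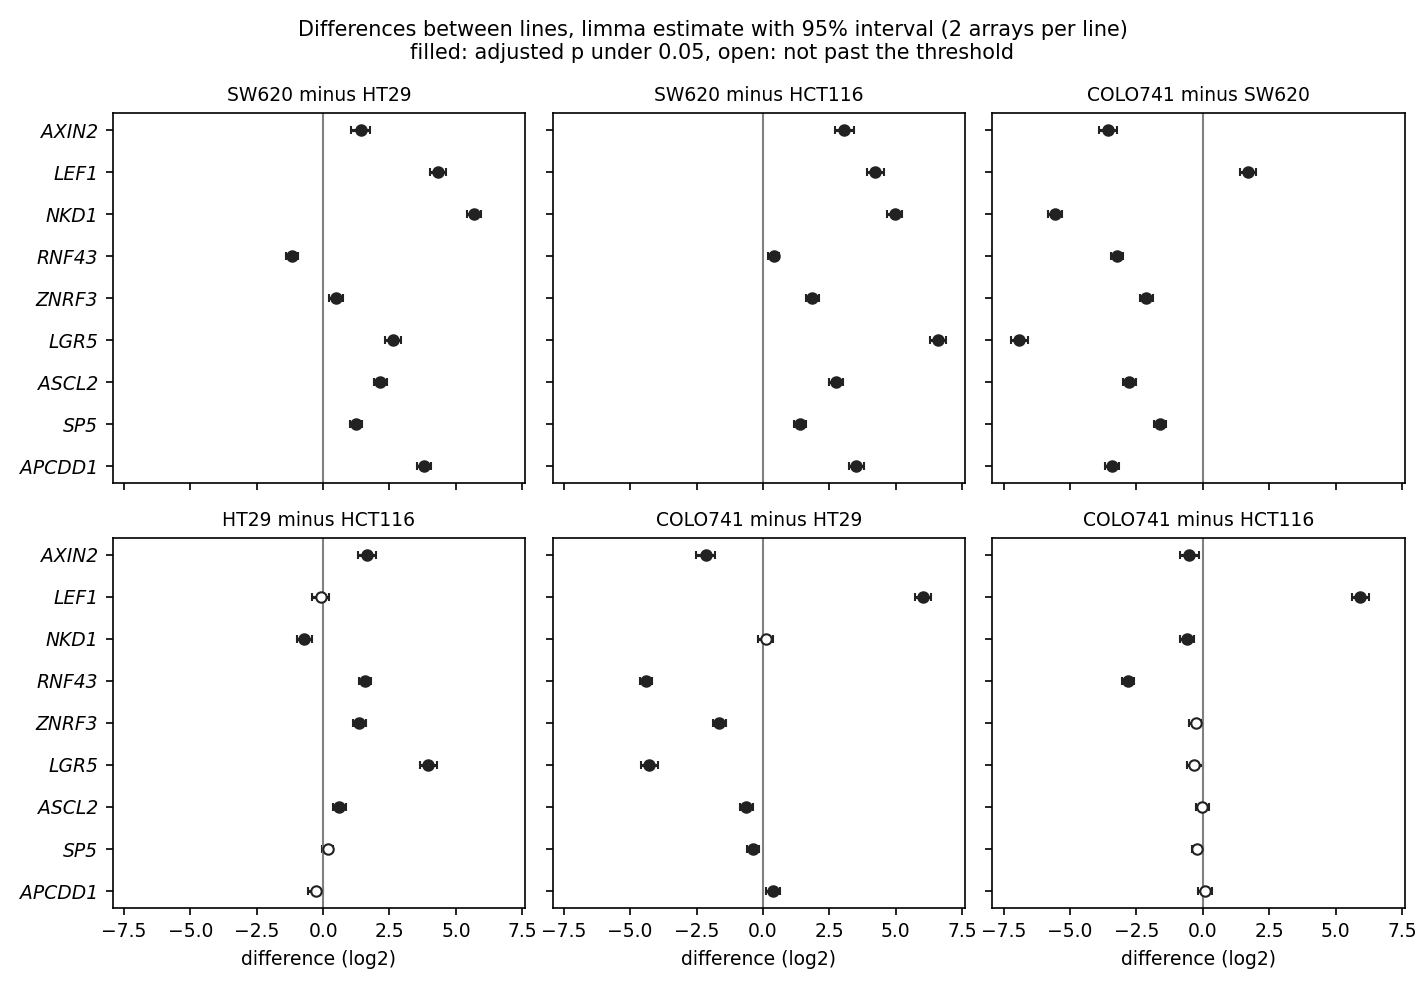
Difference between 2 lines in log2 units (horizontal axis) for each member (vertical axis), in 1 panel for each of the 6 pairs of lines. Points are limma estimates with 95% intervals from 2 arrays per line, filled where the adjusted p over 16910 genes was under 0.05. All 9 points lie right of 0 for SW620 minus HCT116, and 5 of 9 are open for COLO741 minus HCT116.

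The 2 arrays of a line stand as its replicates in these tests, and they are the sorted populations of 1 line, so the p-values measure the spread between such arrays, part of which may be technical, and say nothing of the spread between cultures. For every member the range between lines exceeded the largest difference between the populations within a line, by 7.08 times for AXIN2 and up to 28.1 times for RNF43. The share of all genes for which this holds was not counted. Over all genes tested the median range between lines was 0.64. The median size of the population difference was 0.07 to 0.15 in single lines, so a wider spread between lines was not particular to the members.

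The comparison of the sorted populations asked whether these Wnt targets go with ABCB5, and with limma 0 of the 9 passed, beside 0% of the genes tested. At an unadjusted p under 0.05 there were 0 members and 744 genes, or 4.4% (2.62% higher and 1.78% lower in the positive arrays). The mean differences, positive minus negative over 4 lines, ran from -0.15 to 0.05, with 4 members higher, 5 lower and a median of -0.01, beside -0.005 over all genes. No member had the same sign in all 4 lines, and the share of all genes for which this holds was not counted. For LGR5 it rests on SW620, where both arrays measured 12.71.

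LGR5 had the lowest mean, -0.15 ± 0.21 (SD, n = 4; 95% interval -0.37 to 0.07; limma adjusted p = 0.898), made of -0.44 in HT29, -0.16 in HCT116, where it is at background, with 12.71 in both SW620 arrays and 5.81 in both COLO741 arrays. The HT29 difference, 10.30 in the negative and 9.86 in the positive array, was exceeded in size by 3.51% of the genes in that line. AXIN2 had a mean of -0.13 ± 0.26 (SD, n = 4; 95% interval -0.38 to 0.13; limma adjusted p = 0.898). It came from COLO741 at -0.50, where 7.94% of genes moved farther, while SW620 gave 0.07 and both HT29 and HCT116 gave -0.04. Without COLO741, the line in which ABCB5 ran against the label, the AXIN2 mean was 0.00 ± 0.06 (SD, n = 3).

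The other 7 members had sort means of -0.06 to 0.05. LEF1 measured 0.23 higher in the positive array of COLO741 and of SW620, and -0.19 and -0.05 in HT29 and HCT116, both at background. NKD1 measured 0.26 in HT29 and -0.14 in SW620. APCDD1 measured 0.25 in SW620, in the array with the higher leukocyte markers, and -0.10 to -0.01 in the other lines. Whether leukocytes were present in that array, and any part of them in this difference, was not tested. RNF43 at -0.06 ± 0.09 and SP5 at -0.01 ± 0.09 (SD, n = 4) varied least. For SP5 the 95% interval of the sort difference was -0.16 to 0.15 and for LEF1 -0.17 to 0.27, so that these arrays do not settle shifts within those bounds. In single lines, with 1 array per population and no test, the median size of the members' differences was 0.11 for COLO741 beside 0.15 for all genes, and 0.07 for SW620 beside 0.12. For HT29 it was 0.13 beside 0.10, and for HCT116 0.06 beside 0.07.

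**Figure D3:**
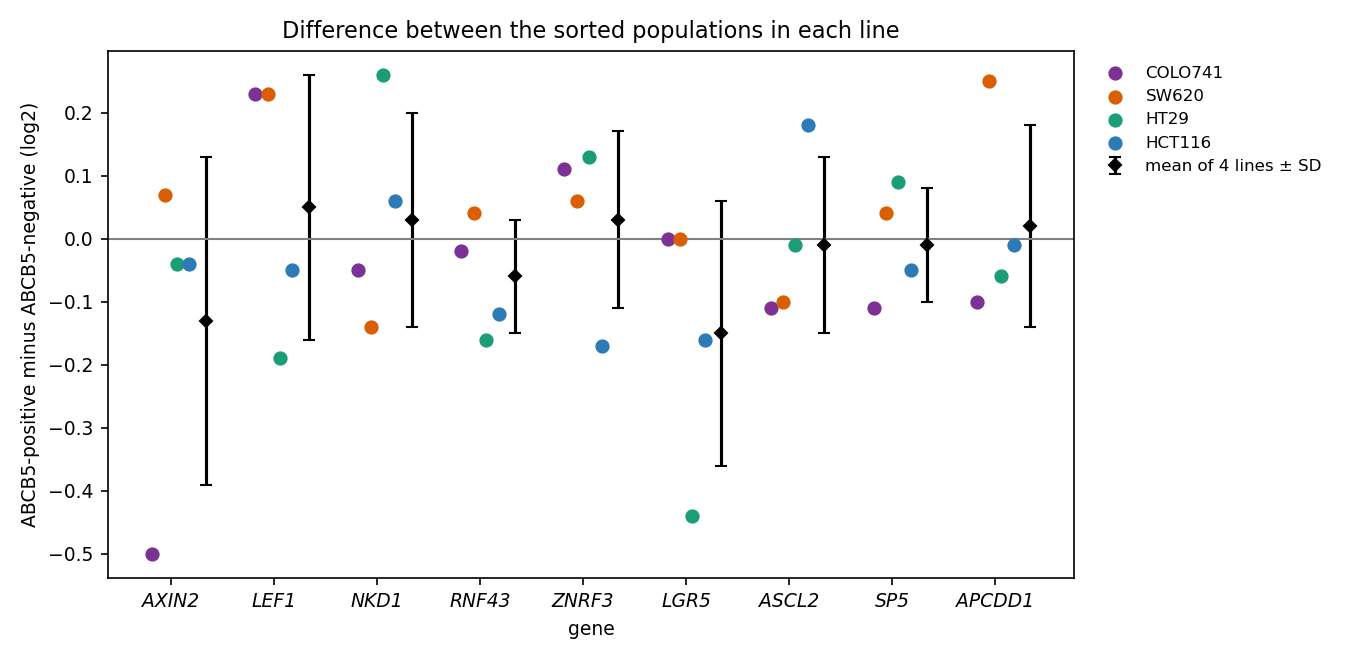
Difference between the array labelled ABCB5-positive and the array labelled ABCB5-negative in log2 units (vertical axis) for each member (horizontal axis), 1 coloured point per line, with the mean of the 4 lines and its SD as a black diamond and bar. Points lie on both sides of 0 for the members except LGR5, whose points lie at or below 0. The farthest are AXIN2 in COLO741 at -0.50 and LGR5 in HT29 at -0.44.

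How the members moved with each other followed their line order. Over the 8 arrays, which are 4 lines with a pair of arrays each, Pearson's r with AXIN2 was 0.99 for LGR5, 0.98 for ZNRF3, 0.92 for ASCL2 and for SP5, 0.79 for NKD1, 0.77 for APCDD1, 0.67 for RNF43 and -0.05 for LEF1. NKD1 and APCDD1, both far higher in SW620 than in any other line, correlated at 0.99 with each other, and RNF43 and LEF1 at -0.77. Of all genes tested, 2.36% had an r above 0.9 with AXIN2. The 5 genes outside the set most like AXIN2 were IL20RA, a cytokine receptor subunit (0.996), KDM4C, a histone demethylase (0.995), PHKA2, a subunit of phosphorylase kinase (0.993), CENPH, a centromere protein (0.992), and PCMTD2 (0.992). IL20RA measured 10.52 and 10.63 in SW620, 9.03 and 9.27 in HT29, and under the background percentile in HCT116 and COLO741. With 4 lines such values describe a shared order of lines and no more.

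Of the wider pathway, 97 genes in 7 lists were tested, and none passed in the comparison of the populations (0 of 97 with limma). At an unadjusted p under 0.05 there were 3, beside 4.4% of all genes tested. They were FZD1 at -0.29 ± 0.09 (SE), FZD2 at 0.27 ± 0.10, named after its value was seen, and BCL9L, a beta-catenin cofactor, at 0.18 ± 0.06. Each had a limma adjusted p of 0.898. The gene of smallest p in each other list was WNT11 at 0.45 ± 0.22 (SE), RSPO3 at 0.14 ± 0.10, SFRP1 at 0.24 ± 0.16, APC at 0.11 ± 0.08 and NKD2 at 0.16 ± 0.07. WNT11 was higher in the positive array of SW620 (9.53 against 8.54) and HT29 (10.26 against 9.29) and not in COLO741 or HCT116.

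The other Wnt targets of intestinal epithelium differed widely between lines. In COLO741 minus the mean of the other lines, 13 of 21 were lower (26% of all genes), 5 higher (23.7%) and 3 short of the threshold. The median was -0.84 beside -0.035 for all genes. BMP4, a growth factor, was 27.3-fold lower in COLO741 (log2 difference -4.77 ± 0.08, SE, limma adjusted p = 2.84e-07) and SOX9, a progenitor transcription factor, 5.48-fold lower. SLC12A2, an ion cotransporter, was 4.23-fold lower. MMP7, a matrix protease, was lower too, a contrast that rests on HT29 at 12.99 and 13.19, since the other 3 lines were under the background percentile. BAMBI, a TGF-beta pseudoreceptor, was 5.42-fold higher in COLO741 than in the mean of the others, though SW620 at 12.76 and 12.82 did not differ from COLO741 past the threshold (adjusted p = 0.103). In SW620 minus HCT116, 13 of the 21 were higher (19.1% of all genes) and 2 lower (19.8%). MYC, the growth regulator, was highest in HCT116 at 13.38 and 13.33 and differed by at most 1.68-fold between 2 lines. CCND1, cyclin D1, was highest in HCT116 at 13.57 and 13.59 and differed by at most 2.58-fold, between HCT116 and HT29.

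Upstream genes were mixed. Of 17 receptors, 9 were higher (23.7% of all genes) and 5 lower (26%) in COLO741 than in the mean of the others. FZD5 was 2.50-fold lower. LRP5, a co-receptor, was 1.96-fold lower, a contrast that rests on SW620 and HT29, since COLO741 and HCT116 did not differ past the threshold (adjusted p = 0.906). FZD3 was 2.30-fold higher, which rests on HT29 at 6.77 and 7.82, as COLO741 passed against neither SW620 (adjusted p = 0.999) nor HCT116 (0.395). FZD4 was higher as well, by 1.0 ± 0.12 on the log2 scale (SE). ROR2, a receptor for noncanonical ligands, was above the background percentile only in HCT116, at 10.09 and 9.89. Of 18 ligands 7 were lower (26% of all genes) and 1, WNT5A, higher (23.7%). WNT5A, a noncanonical ligand, measured 7.78 and 8.51 in COLO741 and 5.80 to 6.06 elsewhere, under the background percentile. WNT16 measured 11.43 and 11.58 in HCT116 and 6.95 to 7.26 elsewhere. WNT10A was 1.54-fold lower in COLO741 and passed against each line. WNT7B was 1.94-fold and WNT11 1.93-fold lower than the mean, but WNT7B did not pass against SW620 (adjusted p = 0.648) nor WNT11 against HCT116 (0.658). Of 5 genes for ligand release and R-spondins WLS, the ligand carrier, was 1.97-fold higher, though not past the threshold against HT29 (adjusted p = 0.116), and the others did not pass.

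Among 10 secreted antagonists 3 were higher (23.7% of all genes) and 2 lower (26%) in COLO741 than in the mean of the others. SFRP1 measured 10.17 and 10.98 in COLO741 and 7.04 to 7.36, under the background percentile, in the others. NOTUM, a Wnt-inactivating enzyme and itself a Wnt target, measured 12.97 and 12.96 in SW620, 8.99 and 8.80 in HCT116, 8.12 and 8.27 in HT29, and 8.05 and 7.92 in COLO741. As for NKD1, SW620 was far above the next line, and HT29 and COLO741 did not differ past the threshold (adjusted p = 0.165). NOTUM was 16.8-fold higher in SW620 than in HCT116 (4.07 ± 0.11, SE, limma adjusted p = 3.53e-06). SFRP5 was likewise highest in SW620, 3.17-fold above HCT116. COLO741 did not differ in SFRP5 past the threshold from HT29 (limma adjusted p = 0.454) or HCT116 (0.377). FRZB and DKK2 were higher in COLO741 at levels at or under the background percentile.

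**Figure D4:**
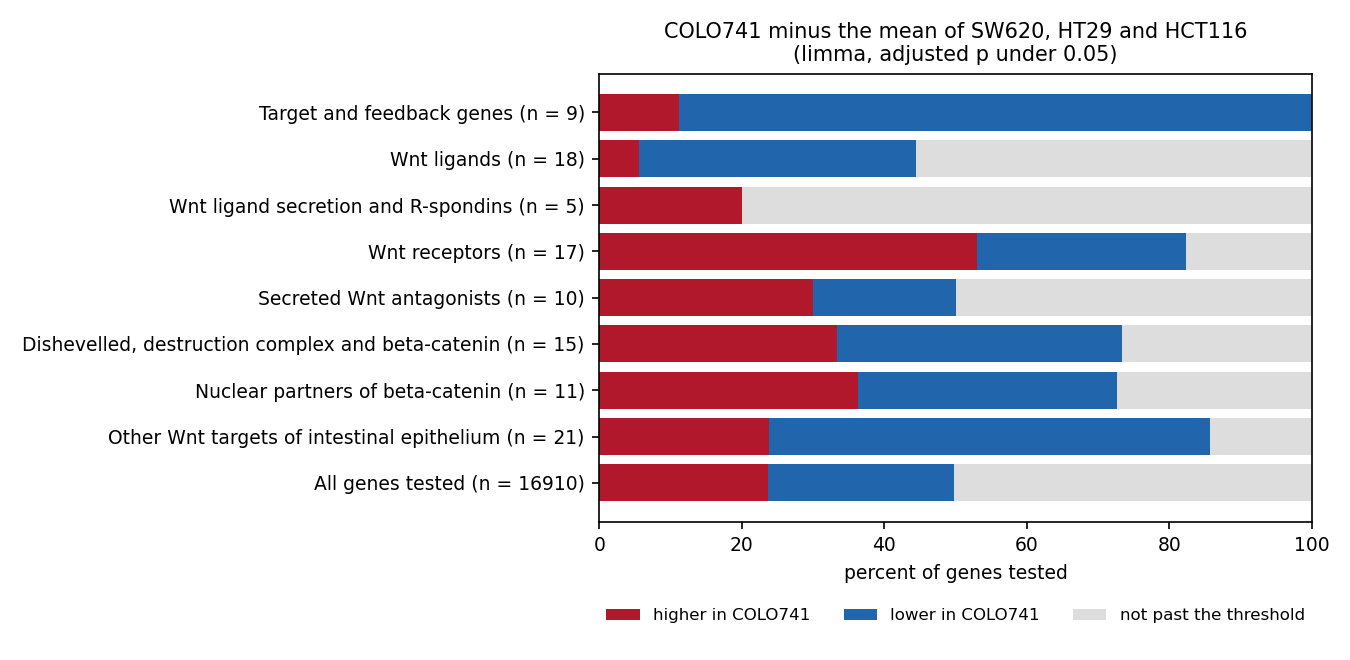
Percent of the tested genes of each list (horizontal bars, n in the label) that were higher, lower or not past the threshold in COLO741 minus the mean of SW620, HT29 and HCT116, by limma with adjusted p under 0.05. The bar of the 9 target and feedback genes is mostly lower in COLO741, with 1 gene higher, beside 23.7% higher and 26% lower for all 16910 genes.

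In the destruction complex and around beta-catenin, 5 of 15 genes were higher in COLO741 than in the mean of the others (23.7% of all genes), 6 lower (26%) and 4 short of the threshold. CTNNB1, which encodes beta-catenin, measured 14.39 and 14.30 in COLO741, 14.05 and 14.07 in SW620, 13.57 and 13.62 in HCT116, and 13.36 and 13.36 in HT29, 1.60-fold higher in COLO741 than in the mean of the rest. APC was 1.39-fold higher, and GSK3B, the kinase of the complex, 1.35-fold higher, though not past the threshold against HT29 (adjusted p = 0.179). AXIN1, the constitutive axin, was 1.29-fold lower in COLO741, beside 4.20-fold lower for AXIN2 in the same contrast, and did not pass against HCT116 (adjusted p = 0.274). DVL3, of the Dishevelled family, was 1.90-fold higher. DVL2 was 1.45-fold higher but did not pass against SW620 (adjusted p = 0.321), and CSNK1A1, a kinase of the complex, was 1.43-fold lower.

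Of 11 nuclear partners 4 were higher (23.7% of all genes) and 4 lower (26%) in COLO741 than in the mean of the others. TCF7L2, the main TCF of gut epithelium, measured 12.43 and 12.38 in HCT116, 11.68 and 11.70 in HT29, 11.55 and 11.53 in SW620, and 10.19 and 10.18 in COLO741, 3.24-fold lower there than in the mean of the others (limma adjusted p = 4.45e-06). LEF1 had its highest level in the line where TCF7L2 had its lowest. That pairing did not extend to SW620 and HT29, which did not differ in TCF7L2 past the threshold (limma adjusted p = 0.197). LEF1 was at least 7.58-fold higher in SW620 than in HT29. TCF7L1, often a repressor, was highest in HCT116 at 9.94 and 9.87 and was 1.30-fold higher in COLO741 than in the mean of the others. PYGO1, a cofactor of the beta-catenin complex, measured 10.21 and 10.05 in COLO741 and under the background percentile elsewhere, at least 6.18-fold lower there. The corepressor TLE1 was under the background percentile in SW620, at 6.95 and 7.02, and measured 11.23 and 11.02 in HT29, 10.79 and 10.91 in COLO741, and 10.07 and 9.85 in HCT116. TLE1 was at least 5.51-fold lower in SW620 than in HCT116. TLE4 measured 9.01 and 8.66 in HT29 and 7.51 and 9.10 in COLO741, which did not differ past the threshold (limma adjusted p = 0.355), and was under the background percentile in SW620 and HCT116. BCL9L was 1.43-fold lower in COLO741 than in the mean of the others.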

How the data were processed

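Per the labels, total RNA of each sorted population was amplified and hybridised to 1 array. The deposited values are log2 expression per probe set for 33297 probe sets, a scale read from their range of 2.99 to 15.24. Per the submitters' processing notes they come from Affymetrix Expression Console; for its version, summarisation and normalization, the record is: not given in the sources used here. No further normalization was applied. Of the probe sets, 19460 named 1 gene in the platform annotation (19429 matched a RefSeq gene by identifier), 1754 named several and 12083 were not listed. For 769 genes with several probe sets the brightest was taken. Genes with a mean under the olfactory receptor median of 5.73 were left out. limma 3.58.1 in R 4.3.3 was used, two-sided, with p-values adjusted by Benjamini-Hochberg over 16910 genes and a threshold of 0.05. For the sort the cell line was a fixed block, since the labels give a positive and a negative array for each line. Deviations of paired arrays correlated at 0.866 to 0.916. For the lines, a means model carried the sorted population as covariate. The model left 3 residual degrees of freedom, and moderation added 3.44. "At least" folds set the dim side to the olfactory 95th percentile. Scripts were tested on simulated data. Alternatives covered scaling, filters, probe set choice, variance trend, the block and left-out arrays.

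The genes named beside the members were 8 core genes, up to 5 genes of each pathway list with the largest difference past the threshold in COLO741 against the mean of the others, the gene of smallest p in each list for the sort, and the 5 genes most correlated with AXIN2. The members and lists were chosen with earlier results of these data known. The array number limits the precision.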

Additional observations from a re-analysis of the deposited data

Results flagged for a closer look

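In 6 of 30 groups of 4 arrays examined, 1 array stood far from the others relative to the group's range. A rate of about 1 in 20, or 1.5 groups, would hold for like and independent arrays. Each group here spans 4 different lines, and the 2 populations of a line are alike, so the count of 6 is not a test against 1.5. NKD1 stood apart in SW620, at 14.00 among the arrays labelled positive and 14.14 among those labelled negative. APCDD1 stood apart in the same line, at 11.83 in the positive and 11.57 in the negative array. ABCB5 stood apart in COLO741, at 8.14 in the positive and 9.42 in the negative array. Each of the 3 genes thus stood apart in both populations of 1 line.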

How the results depend on the processing

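In the comparison of the sorted populations 0 genes passed in every setting run, with and without the cell line block: 0 genes without the block and 0 with the cell line as a random block. Leaving out a line gave means of -0.19 to 0.0005 for AXIN2, -0.01 to 0.14 for LEF1, -0.04 to 0.09 for NKD1, -0.08 to 0.02 for ASCL2, -0.04 to 0.03 for SP5, -0.06 to 0.06 for APCDD1 and -0.43 to 0.09 for ABCB5, so the sign of these small means is not settled. The sign held for LGR5 at -0.20 to -0.05, RNF43 at -0.10 to -0.03 and ZNRF3 at 0.002 to 0.10. With the arrays centred on their medians the sort mean turned to 0.002 for ASCL2 and 0.01 for SP5. Between lines, COLO741 minus HCT116 turned for ASCL2 to 0.04 after quantile normalization and 0.03 after median centring, and ran from -0.15 to 0.10 with an array left out. For ABCB5, at background there, SW620 minus HT29 turned to 0.03 and 0.02 under the same scalings and ran from -0.23 to 0.23; SW620 minus HCT116 and HT29 minus HCT116 each ran from -0.61 to 0.11. NKD1 in COLO741 minus HT29 ran from -0.04 to 0.26, and LEF1 in HT29 minus HCT116 from -0.25 to 0.08. Counts of genes passing with 1 array left out were 7051 to 8069 for COLO741 against the mean, 6104 to 7245 against SW620, 5418 to 7546 against HT29 and 5199 to 7625 against HCT116. They were 4308 to 7485 for SW620 against HT29 (6772 with all arrays), 3809 to 7345 for SW620 against HCT116 (6570) and 4063 to 7240 for HT29 against HCT116 (6594), with 1 array fewer in each fit. The lines' 2 arrays each and signal near background for LEF1, LGR5 and ABCB5 limit what can be ordered.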
